A study of Homo sapiens with 19 samples.

Results

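The superenhancers of 231-D, a highly metastatic clone of the breast cancer line MDA-MB-231, were set against those of MDA-MB-436_Luc2_No3a (No3a), an ex vivo culture of a xenograft of MDA-MB-436. The 231-D set was formed from the regions listed as specific to 231-D (225) and those listed as common to 231-D and its parent 231Pa (183), 408 in all. The No3a set was formed likewise from the regions specific to No3a (116) and those common to No3a and its parent MDA-MB-436_Luc2 (324), 440 in all. Together these are 848 of the 1958 superenhancer regions in the 8 lists of the series; regions listed for a parent alone were left out. A region was called shared when it overlapped a region of the other set by 1 bp or more, and private otherwise.

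Each derivative was profiled by ChIP-seq for H3K27ac in 2 replicates, and OCT-2 was precipitated in 231-D in 2 replicates. Per the labels, 231-D carries a luciferase transgene and 231Pa carries none, whereas No3a and MDA-MB-436_Luc2 both carry luciferase. The H3K27ac samples of 231-D are labelled as a clone, its OCT-2 samples also as polyclonal with stable transgene expression, and No3a is labelled polyclonal. Inputs of 231Pa, 231-D and MDA-MB-436_Luc2 are among the samples, and an input of No3a was not analysed here. The 4 H3K27ac libraries are present only as positions that the authors derived from both replicates, without counts or signal, so the depth is unknown and no value per replicate exists. No test over samples was therefore possible. Shares are given with exact (Clopper-Pearson) 95% intervals, which cover counting error only, and whether any difference exceeds the spread between replicates was not tested.

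H3K27ac is an acetylation of histone H3 that marks active enhancers and promoters. Superenhancers are long clusters of such enhancers, usually found near genes that are strongly expressed and characteristic of a cell type. OCT-2, encoded by POU2F2, is a transcription factor of the POU family that binds the octamer element and is best known from B lymphocytes. MDA-MB-231 and MDA-MB-436 are both triple-negative lines, that is, they lack oestrogen receptor, progesterone receptor and HER2 amplification. All positions are in hg19 and counted from 1. No genes are assigned to regions, since an hg19 annotation was not used here.

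Fewer than 1 in 2 superenhancers of either derivative had a counterpart in the other. Of the 408 regions of 231-D, 177 (43.4%, interval 38.5 to 48.3%) met a No3a region, and 231 were private. Of the 440 regions of No3a, 181 (41.1%, interval 36.5 to 45.9%) met a 231-D region, and 259 were private. The 231-D set covered 45.6 Mb and the No3a set 41.8 Mb, which is 1.52% and 1.39% of the 3004 Mb spanned by the lists. The bases in both sets came to 16.9 Mb, or 37.0% of the 231-D bases and 40.4% of the No3a bases. Over the union of 70.5 Mb, the shared part was 23.9%. Most matches joined a single region of each derivative: 170 of 176 shared loci were of this kind, 5 held 1 of 231-D and 2 of No3a, and 1 held 2 of 231-D and 1 of No3a.

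**Figure D1:**
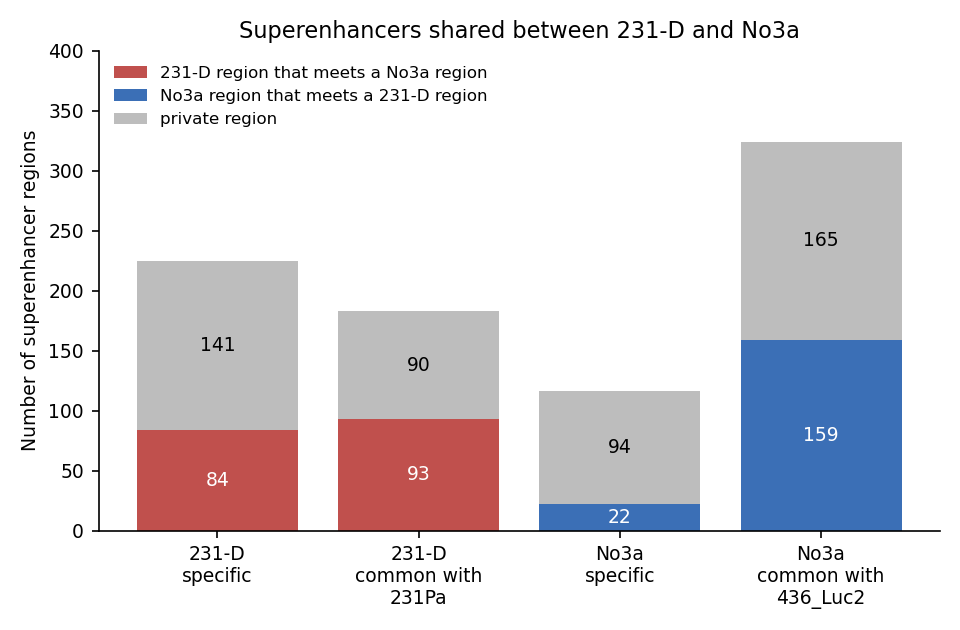
Number of superenhancer regions (vertical axis) by list of origin, with 231-D on the left and No3a on the right; the coloured part of a bar counts regions that meet a region of the other derivative and the grey part private regions. In the No3a-specific list 22 of 116 regions were shared, the smallest coloured part of the 4 bars.

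Superenhancers that a derivative has in common with its own parent were shared between the lines more often than those specific to the derivative, and the gap was wider for No3a. In 231-D, 84 of 225 specific regions (37.3%, interval 31.0 to 44.0%) and 93 of 183 common regions (50.8%, interval 43.3 to 58.3%) met a No3a region. In No3a, 22 of 116 specific regions (19.0%, interval 12.3 to 27.3%) and 159 of 324 common regions (49.1%, interval 43.5 to 54.7%) met a 231-D region. The intervals overlap for 231-D and are apart for No3a. Common regions are also wider, with medians of 127 against 76.8 kb in 231-D and 94.4 against 48.9 kb in No3a. In each set the widest regions met the other set more often than the narrowest. By bases, 34.7% of the specific and 38.5% of the common 231-D list were shared, and 19.7% and 44.4% for No3a. Whether the lists differ at equal width was not tested. Common regions are merges of 2 to 4 calls in 231-D and of 2 to 3 in No3a, whereas every specific region is a single call. A common region is thus the union of calls in the derivative and its parent, and a base in it need not have been called in the derivative itself.

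A 231-D superenhancer with a counterpart in No3a usually met one that MDA-MB-436_Luc2 also had, whether it was specific to 231-D or common with 231Pa. Of the 84 shared 231-D-specific regions, 74 (88.1%) met a common No3a region and 10 (11.9%) a No3a-specific one. For the 93 shared 231-D regions common with 231Pa the split was 81 (87.1%) against 10, and 2 regions met No3a regions of both kinds. The specific regions make up 26.4% of the No3a set, and 22 of the 181 No3a regions that met 231-D. Seen from No3a, 10 of the 22 shared specific regions (45.5%) and 73 of the 159 shared common regions (45.9%) met a 231-D-specific region, and these are 55.1% of the 231-D set.

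Of the 74 pairs of a 231-D-specific and a common No3a region, the one with the longest shared stretch lay on chromosome 14, where the 231-D region (23290311 to 23585507, 295 kb) and the No3a region (23298465 to 23586288, 288 kb) shared 287 kb. Next by shared length came a pair on chromosome 5, in which the whole 231-D region (172142115 to 172412069, 270.0 kb) lay inside a No3a region of 376 kb. A pair on chromosome 21 shared 187 kb, with the 231-D region at 30444872 to 30632943 and the No3a region at 30444643 to 30632181. At these loci 231-D has a superenhancer that the authors do not list for its parent, while No3a and its parent both have one. The 3 pairs held no OCT-2 peak of 231-D.

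Loci specific to the derivative in both lines were few. At 10 loci a 231-D-specific region met a No3a-specific region, which is 4.44% of the 225 231-D-specific regions (interval 2.15 to 8.02%) and 8.62% of the 116 No3a-specific ones (interval 4.21 to 15.3%). By comparison, 32.9% of the 231-D-specific regions met a common No3a region. The common No3a list is the larger target, with 324 regions over 35.0 Mb against 116 over 6.74 Mb. Of the 183 231-D regions common with 231Pa, 12 (6.56%, interval 3.43 to 11.2%) met a No3a-specific region, and the interval overlaps that of the 231-D-specific regions. The 10 loci shared 484 kb in all. Each paired 1 region of 231-D with 1 of No3a, and the 231-D region was the wider in all 10 pairs, by a median ratio of 1.29. As whole lists, 231-D-specific regions are also wider than No3a-specific ones, with medians of 76.8 and 48.9 kb. The No3a region lay wholly within the 231-D region in 7 pairs and was covered to 99.6% or more in the other 3. An end of the region coincided within 1 kb between the derivatives in 8 of the 10.

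The locus with the longest shared stretch was on chromosome 14, where a 231-D region of 101 kb (102685893 to 102787383) and a No3a region of 101 kb (102687126 to 102787755) had nearly the same extent and shared 100.3 kb. On chromosome 15 a 231-D region of 103 kb (42162378 to 42265641) contained a No3a region of 79.0 kb (42186594 to 42265569), and their right ends lay 72 bp apart. A 231-D region of 107 kb on chromosome 22 (38530980 to 38637662) shared 65.8 kb with a No3a region (38571849 to 38637757). The right ends thus matched at these loci, and where the extents differed the 231-D region reached further to the left.

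On chromosome 2 the shared stretch was 63.1 kb (100437026 to 100500170) and made up 78.6% of the 231-D region. Chromosome 19 had 2 such loci, with shared stretches of 48.7 kb (42579193 to 42627935) and 11.7 kb (41724297 to 41735985). The remaining loci shared 40.5 kb on chromosome 11 (128042409 to 128082890), 34.4 kb on chromosome 5 (169373072 to 169407438) and 30.5 kb on chromosome 18 (2511420 to 2541889). The shortest shared stretch, 9.82 kb, was at a second locus on chromosome 14 (105484332 to 105494153). The share of the 231-D width that No3a covered ranged over the 10 loci between 24.2% at the shorter chromosome 19 locus and 98.8% at the chromosome 14 locus with the longest shared stretch.

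**Figure D2:**
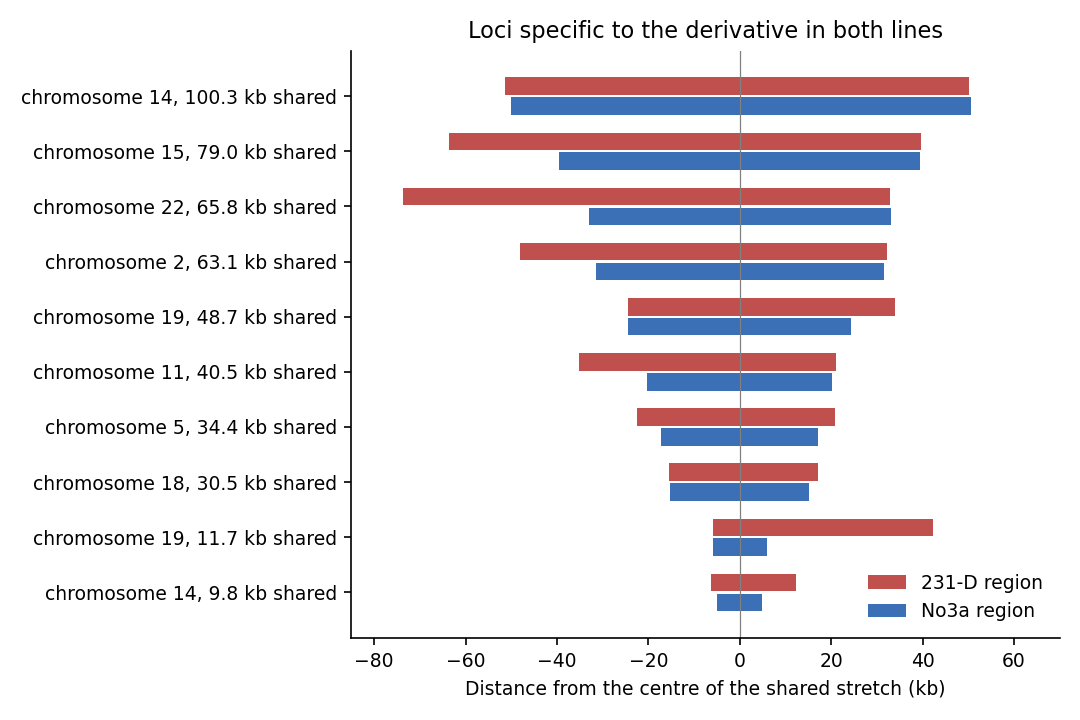
The 10 loci specific to the derivative in both lines, drawn to scale as distance in kb from the centre of the shared stretch, with the 231-D region above the No3a region at each locus. The loci run down the page by shared length, between 100.3 and 9.82 kb, and the 231-D bar is the longer at each.

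Where the derivatives met, the narrower region of the pair was mostly covered in full or nearly so. In 166 of the 182 overlapping pairs (91.2%) the narrower region was covered to 90% or more, and in 117 it was covered entirely. The smallest coverage was 42.8%, at a pair on chromosome 2 (231-D 9282764 to 9392821, No3a 9345736 to 9580847), and 2 pairs were under 50%. The wider region was often covered in part only. Of the shared regions, 97 of 177 in 231-D (54.8%) and 123 of 181 in No3a (68.0%) were covered to 90% or more. Coverage was under 25% in 6 regions of 231-D and 1 of No3a. In 141 of the 182 pairs, 50% or more of both regions was shared. The median shared stretch was 79.4 kb. The 231-D region lay within the No3a region in 40 pairs, the No3a region lay within the 231-D region in 77, and 65 pairs were staggered. The private 231-D region closest to a No3a region was 28.2 kb away, and 3 lay within 50 kb; for private No3a regions the smallest gap to 231-D was 28.4 kb, and 12 lay within 50 kb. The median gap of the 231 private 231-D regions to the nearest No3a region was 4041 kb, and that of the 259 private No3a regions to the nearest 231-D region was 1845 kb.

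Region ends often fell at nearly the same position in the 2 lines. The No3a lists were read as hg19 from such matches, so the matches are not independent of that reading. How often ends of unrelated regions would match was not tested. Of the 364 ends in the 182 pairs, 114 (31.3%) lay within 1 kb of the end on the same side in the other derivative, and in 15 pairs both ends did. Among these 15 was a region on chromosome 10 of 95.1 kb in both (231-D 33227344 to 33322427, No3a 33227252 to 33322390), common with the parent in both lines. Another lay on chromosome 3 (231-D 111564471 to 111723282, No3a 111564752 to 111722402), specific in 231-D and common in No3a. Of these 15 pairs, 10 joined a 231-D-specific and a common No3a region. The share of ends within 1 kb was 38.5% in pairs of that kind and 25% where both regions were common.

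Widths went together in the pairs with some large exceptions. Over the 170 pairs of a single region each, Spearman's rho between the widths was 0.60; the pairs share the authors' method of calling and stitching, and the value describes regions, not replicates. The ratio of the 231-D width to the No3a width had a median of 1.04 (quartiles 0.90 and 1.38), and 104 of the 170 (61.2%) were wider in 231-D. The 231-D region was 2-fold wider or more in 19 pairs, and the No3a region in 9. In pairs of a 231-D-specific and a common No3a region the median ratio was 1.00, although the No3a region there is a union and the 231-D region a single call. In the 10 such pairs of a common 231-D and a No3a-specific region it was 1.37. There the 231-D region is the union and the No3a region the single call.

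**Figure D3:**
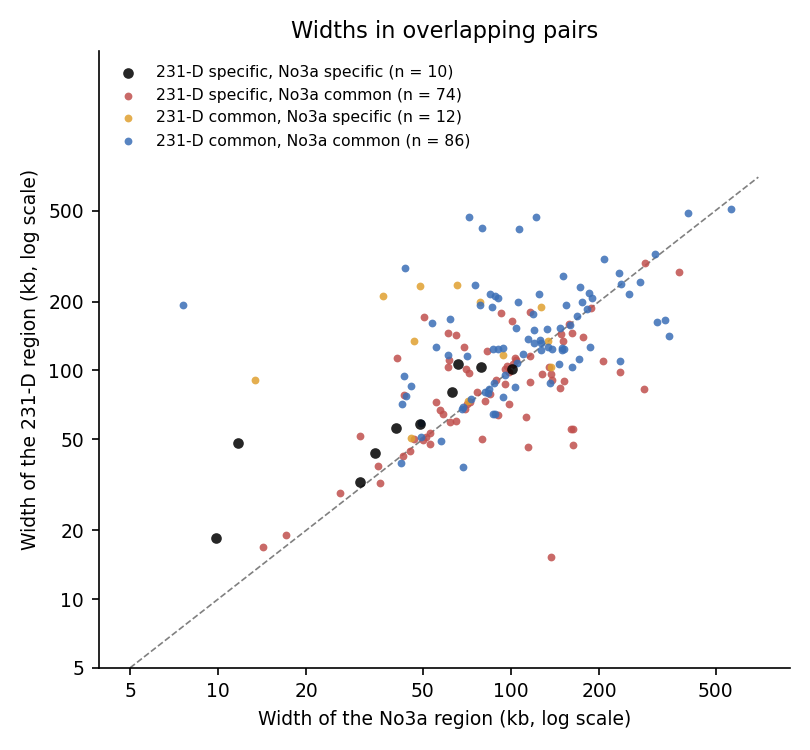
Width of the 231-D region (vertical axis, kb, log scale) against that of the No3a region (horizontal axis, kb, log scale) for the 182 overlapping pairs, coloured by the lists the regions come from; the dashed line marks equal width. All 10 pairs specific in both lines (black) lie above the line.

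The most unequal pairs were both on chromosome 5. A common 231-D region of 193 kb (148266504 to 148459490) was 25.5 times as wide as a No3a region of 7.56 kb inside it, while a second No3a region met the same 231-D region. In the other direction, a 231-D-specific region of 15.3 kb (14263420 to 14278747) lay inside a No3a region of 137 kb that a further 231-D-specific region also met. There the right ends lay 2 bp apart.

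Shared superenhancers were wider than private ones in both derivatives, with broad overlap of the distributions. Under the 1 bp rule a wider region meets the other set more readily, and how far the order reflects this was not tested. In 231-D the median width was 107 kb for shared regions (quartiles 71.2 and 154) and 88.2 kb for private ones (52.6 and 128). In No3a it was 92.2 kb for shared regions (quartiles 61.5 and 138) and 73.4 kb for private ones (42.3 and 112). Within a list the gap was smaller: 83.6 kb shared and 72.3 kb private among 231-D-specific regions, and 132 kb shared and 122 kb private among 231-D common ones. For No3a these medians were 56.1 kb and 47.8 kb among specific regions, and 96.9 kb and 89.1 kb among common ones. With the 231-D set divided by width into 4 parts of 102 regions, narrow to wide, the share that met No3a was 33.3%, 39.2%, 47.1% and 53.9%. At the same width limits the share of No3a regions that met 231-D was 32% (48 of 150), 43.8% (49 of 112), 39.1% (36 of 92) and 55.8% (48 of 86), so that the third part lay below the second.

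**Figure D4:**
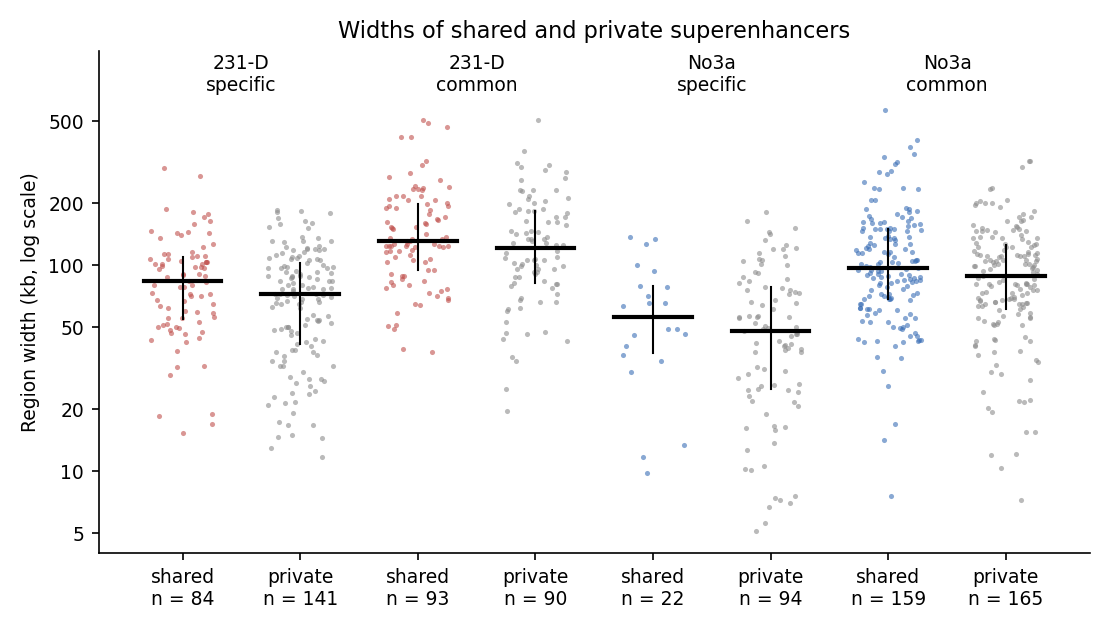
Region width in kb (log scale) for shared and private regions of each list, with 231-D on the left and No3a on the right; points are regions, thick lines medians and thin lines quartiles. In every list the shared median lies above the private one and the point clouds overlap.

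The widest shared regions were large in both lines at some loci and in 1 line at others. On chromosome 20 a 231-D region of 508 kb (48703654 to 49211442) and a No3a region of 565 kb (48635941 to 49200560) shared 497 kb. On chromosome 8 a 231-D region of 490.0 kb (128806052 to 129296065) and a No3a region of 404 kb (128805779 to 129209768) shared 404 kb. By contrast, on chromosome 9 a 231-D region of 469 kb (114566721 to 115035329) met 2 No3a regions of 72.0 and 122 kb, so that 41.3% of it was covered. On chromosome 1 a 231-D region of 420 kb (218502866 to 218922552) met a No3a region of 79.7 kb, and on chromosome 12 a 231-D region of 417 kb (76015960 to 76433159) met a No3a region of 106 kb. All 5 of these 231-D regions and their No3a partners are common with the respective parent. Their widths are thus those of unions with the parent's calls, and the width in the derivative alone is unknown.

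Other wide No3a regions met narrower 231-D regions on chromosomes 11 and 1. On chromosome 11 a No3a region of 348 kb (62305978 to 62653759) shared 141 kb with a 231-D region whose left end lay 202 bp away. On chromosome 1 a No3a region of 337 kb (153419593 to 153756798) contained a 231-D region of 167 kb. The regions of these pairs are likewise common with the respective parent.

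Among private regions the widest were common with the parent in both lines. In 231-D they were on chromosome X (12947256 to 13453005, 506 kb), chromosome 11 (11953084 to 12311038, 358 kb, and 86166149 to 86473970, 308 kb), chromosome 8 (118820963 to 119133246, 312 kb) and chromosome 2 (37759359 to 38060898, 302 kb). The region on chromosome X lay 27736 kb from the nearest No3a region and that on chromosome 2 lay 934 kb away. In No3a the widest private regions were on chromosome 7 (5434767 to 5756085, 321 kb), chromosome 6 (26155147 to 26475785, 321 kb, and 27637145 to 27871602, 234 kb), chromosome 8 (126272427 to 126570733, 298 kb) and chromosome 11 (63931571 to 64167970, 236 kb). The last of these was 378 kb from a 231-D region.

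Regions that were both private and specific to the derivative were narrower. There were 141 of them in 231-D, with a median of 72.3 kb and a widest region of 186 kb on chromosome 16 (81434361 to 81620176). In No3a there were 94, with a median of 47.8 kb and a widest region of 180 kb on chromosome 7 (140217796 to 140398183). These regions were chosen for description after their values were seen.

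Sharing varied from chromosome to chromosome. Over the 16 chromosomes with 10 or more 231-D regions, the share of 231-D regions that met No3a lay between 21.4% on chromosome 4 (3 of 14) and 70% on chromosome 19 (7 of 10). Both extremes rest on few regions, and whether chromosomes differ beyond counting error was not tested. Chromosome 1 held the most shared regions, 32 of 58 in 231-D and 33 of 66 in No3a. Chromosome X held 8 regions of 231-D and 6 of No3a, and none met. Chromosome 13 likewise had 1 region in 231-D and 6 in No3a without an overlap. The sets were also spread differently: chromosome 5 carried 9.80% of the 231-D regions and 4.77% of the No3a regions, and chromosome 14 carried 5.15% and 1.82%. On chromosome 2 the order was the other way, with 4.66% of the 231-D regions and 8.86% of the No3a regions. On chromosome 5 all but 6 of the 21 No3a regions were shared, against 15 of 40 in 231-D.

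OCT-2 peaks of 231-D lay both in superenhancers that No3a shares and in those private to 231-D. At least 1 of the 917 peaks lay in 107 of the 408 231-D regions (26.2%). Among the 177 shared regions 48 held a peak (27.1%, interval 20.7 to 34.3%), and among the 231 private ones 59 did (25.5%, interval 20.05 to 31.7%). Where an overlap of 50% of both regions was asked for, the order turned round, with 22.0% of shared and 28.5% of private regions. Shared regions are wider, and per length the densities were 2.68 peaks per Mb in shared and 2.97 per Mb in private regions. The intervals overlap widely. Outside both sets the density was 0.25 peaks per Mb.

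Within shared 231-D regions, 49 of the 60 peaks lay in the stretch shared with a region of the No3a set. Of these 49, 32 lay in pairs of 2 common regions and 13 in pairs of a 231-D-specific and a common No3a region. A base of a common No3a region need not have been called in No3a itself. The shared stretch is 75.5% of the width of the shared 231-D regions. It held 2.90 peaks per Mb, against 2.00 per Mb in the flanks that only the 231-D region covers. The flanks held 11 peaks, so this difference rests on few peaks.

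The lists behind the 231-D set ran in opposite directions. Among 231-D-specific regions a peak was present in 14 of 84 shared regions (16.7%, interval 9.42 to 26.4%) and in 37 of 141 private ones (26.2%, interval 19.2 to 34.3%). Among regions common with 231Pa it was present in 34 of 93 shared (36.6%, interval 26.8 to 47.2%) and 22 of 90 private regions (24.4%, interval 16 to 34.6%). Peak densities followed the same order: 2.24 per Mb in shared and 3.83 per Mb in private 231-D-specific regions, against 2.91 and 2.23 per Mb in common ones. The intervals overlap in both lists, and whether the lists differ was not tested.

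The 231-D OCT-2 peaks also lay in regions that are superenhancers in No3a. OCT-2 binding in No3a itself was not analysed here, so these counts describe where the 231-D peaks fall. Of the 440 No3a regions, 77 (17.5%) held such a peak. The share was 24.9% (45 of 181, interval 18.8 to 31.8%) for No3a regions that met a 231-D region and 12.4% (32 of 259, interval 8.61 to 17%) for private ones, and these intervals are apart. Part of this order is built into the grouping, since regions that met 231-D lie partly in 231-D superenhancers, with 2.83 peaks per Mb. Of the 55 peaks in these No3a regions, 49 lay in the stretch shared with 231-D. The regions that met 231-D are also wider, with a median of 92.2 kb against 73.4 kb. Within each No3a list the shares ran the same way but the intervals overlap. A peak was present in 3 of 22 shared (13.6%, interval 2.91 to 34.9%) and 7 of 94 private No3a-specific regions (7.45%, interval 3.05 to 14.7%). Among regions common with MDA-MB-436_Luc2 it was present in 42 of 159 shared (26.4%, interval 19.7 to 34.0%) and 25 of 165 private ones (15.2%, interval 10.05 to 21.5%). Over both lists the densities were 2.71 peaks per Mb in shared and 1.68 per Mb in private No3a regions. Private No3a regions thus held fewer peaks per Mb than private 231-D regions (2.97), but more than the space outside both sets (0.25). Of the 129 peaks in the 231-D set, 49 (38.0%) were also in the No3a set, and of the 91 peaks in the No3a set, 49 (53.8%) were also in the 231-D set.

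**Figure D5:**
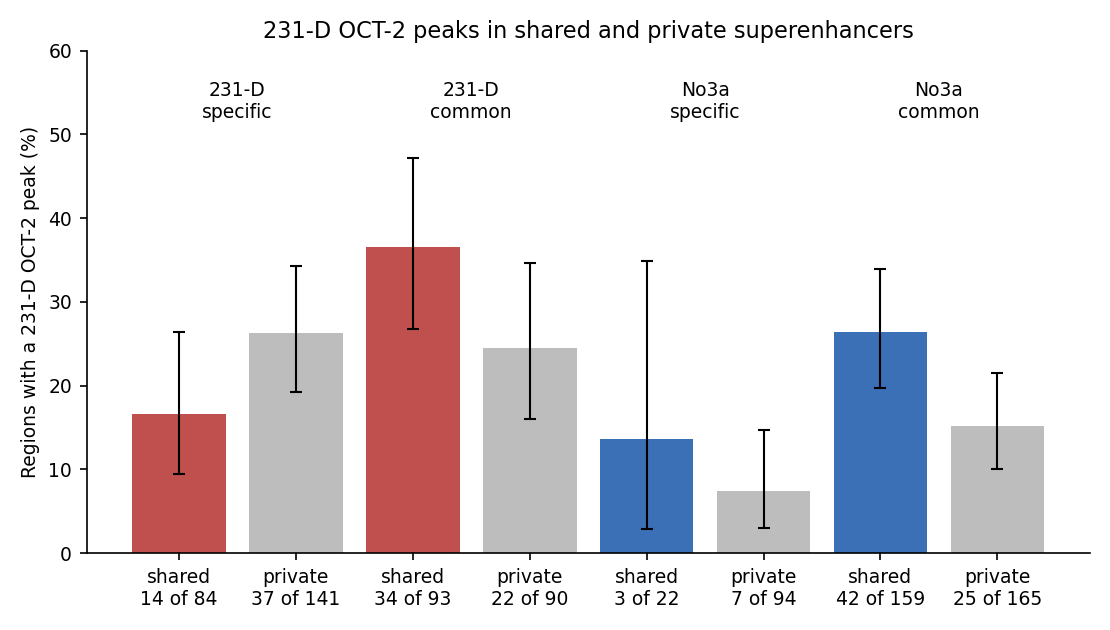
Share of regions with at least 1 OCT-2 peak of 231-D (vertical axis, %), for shared and private regions of each list, with 231-D on the left and No3a on the right; whiskers are exact 95% intervals for counting error. The share ran between 7.45% in private No3a-specific regions and 36.6% in shared 231-D regions common with 231Pa.

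Of the 10 loci specific to the derivative in both lines, 1 held an OCT-2 peak. It was the shorter of the loci on chromosome 19, with the peak at 41731478 to 41731741, inside the stretch that both derivatives mark. In 1 of 10 pairs (10%) specific in both lines a peak lay in the shared stretch. The same count was 10 of 74 (13.5%) for 231-D-specific with common No3a regions, 2 of 12 (16.7%) for common 231-D with No3a-specific regions, and 28 of 86 (32.6%) where both regions were common. The shared stretches differ in length, with medians of 44.6, 69.8, 63.2 and 92.8 kb in these 4 kinds of pair, in the same order. Per length they held 2.07, 2.21, 3.56 and 3.30 peaks per Mb; the first and the third of these rest on 1 and 3 peaks.

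The shared locus with most OCT-2 peaks was the one on chromosome 8 described above. It held 4, at 128930903 to 128931149, 129115778 to 129115999, 129195414 to 129195672 and 129279840 to 129280206. The first 3 lay in the shared stretch and the last in the part of the 231-D region beyond the No3a region. A locus on chromosome 1 (59473800 to 59641137) held 3, of which 2 lay in the 61.7 kb shared with a No3a region common with MDA-MB-436_Luc2. A further locus on chromosome 1 (45172167 to 45286591) also held 3, but only the peak at 45285742 to 45285982 was inside the 231-D-specific region of 46.3 kb; the other 2 were in the part of a No3a region of 114 kb that the 231-D region leaves free. On chromosome 20 a locus of 239 kb (52328205 to 52567444) and on chromosome 19 a locus of 161 kb (45871430 to 46032578) held 2 each, all in shared stretches. In all, 7 loci held 2 peaks, and these were the pair with the longest shared stretches. In 6 of the 7 both peaks lay in the shared stretch, and in the other one, the chromosome 1 locus at 218502866 to 218922552, neither did.

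Among private 231-D regions, the most peaks were 3, in a region on chromosome 5 (33763143 to 33862276, 99.1 kb, common with 231Pa), at 33772527 to 33772757, 33827953 to 33828283 and 33843857 to 33844109. The densest was a 231-D-specific region of 27.9 kb on the same chromosome (73917564 to 73945448) with 2 peaks, at 73935016 to 73935256 and 73936470 to 73936757. These regions were picked after their values were seen. In total, 9 private 231-D regions held 2 or more peaks, and 9 shared ones did. Of the 129 peaks in 231-D superenhancers, 46 lay on chromosomes 1 and 5, which also carry 98 of the 408 regions.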

How the data were processed

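The values are positions. Per the labels, chromatin was precipitated with antibodies against H3K27ac or OCT-2; bedtools, HOMER, Bowtie and Bowtie2 2.2.2.6 appear in the submitters' processing notes, with hg38 and hg19 as builds, and no threshold for calling regions is given in the sources used here. The authors deposited lists of region starts and ends without score, count or signal, 1 list per comparison from both replicates, so depth and replicate spread are unknown. The 231-D lists are hg19 per their file names. The No3a lists name no build and were read as hg19: of their 880 region ends, 114 lay within 1 kb of a same-side end in the 231-D set, against 4 and 6 in the hg38 lists of 231Pa_Luc+GFP and 231Pa_Luc+OCT-2.

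Overlap of 1 bp, shared bases, widths and OCT-2 peaks per region were computed in Python 3.11.15 with numpy 2.4.6, pandas 2.3.3 and scipy 1.17.1; the overlap functions were tested on simulated regions. Peaks were counted in a region from 1 bp of overlap. Width parts were cut at the quartiles of the 231-D set. No statistical test was run: no value per sample exists, and regions are not replicates. Named regions are all loci specific in both lines, the 5 widest per class and the 5 shared loci with most OCT-2 peaks (equal numbers ordered by shared length), plus those said to be picked afterwards and the pairs given for their extreme widths or matching ends. Members, lists and rules were chosen with earlier results of these data known. No gene or sequence is given, since no annotation or genome of hg19 was used here.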

Additional observations from a re-analysis of the deposited data

How the results depend on the processing

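Counts of shared regions hardly depended on the overlap asked for, except when 50% of both regions was required: 231-D regions then numbered 141 in place of 177 and No3a regions 141 in place of 181. Over all overlap rules, equal numbers of the widest regions, and leaving out chromosome 1, the 231-D share lay between 34.6 and 43.4% and the No3a share between 32 and 42.9%. Loci specific in both lines numbered 8 to 10. Under the same settings the shared median width stayed above the private one in both derivatives. The OCT-2 share of 231-D regions turned round under 50% of both regions, at 22.0% shared and 28.5% private, and came level at 26.3 and 26.2% under 50% of the narrower; so the order of these shares depends on the rule. Set against the hg38 lists without conversion of positions, 53 (231Pa_Luc+GFP) and 65 (231Pa_Luc+OCT-2) No3a regions met a region, in place of 181. Those lists differ from the 231-D set in cells, number of regions and build at once. The drop therefore does not show how stable the 181 is. Leaving out each replicate was not possible, because the lists merge them. No paired analysis was possible because no result comes from a test and the lists carry no replicate. Depth is unknown, so regions missing from a list may lie just under a calling threshold.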
